A study of Mus musculus with 2 samples.

Results

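Heat shock proteins and chaperonins fold new proteins, refold damaged ones and hold others until they can be folded or degraded. The 76 genes described here were taken by symbol alone: those beginning with Hsp (Hspg2, a proteoglycan gene, left out) or Dnaj, those beginning with Hsf, Fkbp or Bag followed by a digit, and Cct2 to Cct8, Tcp1, St13, Stip1, Cryab, Ahsa1 and Chordc1. The rule itself reads no signal. They are 76 of the 8251 genes with a probe set assigned to 1 symbol, and they are covered by 109 of 10833 such probe sets. 2 further probe sets carry a member's symbol together with another one and were not used, and Ahsa1 and Hsp90ab1 were not analysed here.

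The study compared skin of newborn mice without keratin 5 (K5-/-) with skin of newborn wild type mice. Keratin 5 is a keratin of the basal epidermal layer, and its loss is a model of epidermolysis bullosa simplex (EBS), a blistering disease. RNA of 6 animals was pooled in each group, tissue was taken right after birth, and each pool was read on 1 array, so there are 2 arrays, no replicates and no test. The labels give no strain, sex or construction of the knockout allele. Because the animals were pooled, 1 animal with a high signal cannot be told from a shift in all 6. In whole tissue, fewer cells of a type and less RNA per cell cannot be told apart.

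The label calls the tissue epidermis and the protocol calls it skin. Fibroblast markers were present on both arrays, with a summed signal of 175585 in knockout and 148873 in wild type skin over 6 of 7 listed genes, and so were 17 of 19 skeletal muscle markers (136009 and 115898 over all 19). Of the keratinocyte markers, 8 of 11 on the array were measured. The other 3, Krt5, Krt14 and Krt15, were under the floor on both arrays, so the targeted gene gives no check of the labels. RNA quality was alike on both arrays by the 3 prime over 5 prime signal ratio of Actb (1.04 knockout, 1.06 wild type) and of Gapdh (0.841 and 0.831).

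Values are scaled MAS5 signals, on a linear scale in signal units. Signals of different probe sets are not comparable with each other, so each log2 ratio is of the same probe set on both arrays. The summed signals of marker lists are the exception. They add the same probe sets on both arrays and are weighted towards the brightest. A floor of 246.7 signal units, the 40th percentile of all values, was applied before the log2 ratio of knockout over wild type was taken. A gene above the floor on at least 1 array counts as measured. Of the 76 members 69 were measured, 66 of them above the floor on both arrays, and 7 were under it on both. Where a gene had several probe sets, the one with the highest mean stands for it.

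Heat shock factor 1 is a transcription factor that is held inactive by chaperones and released when unfolded proteins accumulate. It binds the heat shock element, inverted repeats of nGAAn, and switches on HSP70, HSP40 and HSP90 genes. HSP40 proteins (Dnaj) deliver clients to HSP70 and stimulate its ATPase, nucleotide exchange factors release them, and HSP90 with its FKBP and TPR partners matures kinases and steroid receptors. Chaperonins are closed rings in which actin, tubulin and mitochondrial proteins fold. In keratinocytes, inducible HSP70 and small HSPs are known to act on aggregates of mutant keratin.

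Promoter stretches of 6 members are shown first, and their part in the ratios was not tested. Each runs from 250 bases before to 30 bases after an annotated start, 5′ to 3′ on the gene's strand, from RefSeq on GRCm38.p6. Capitals mark each 2-unit heat shock element, searched as GAANNTTC and TTCNNGAA on both strands. Hspa1a and Hspa1b are shown because they were the members with the highest ratios. Hspe1, Hsph1 and Chordc1 are heat-inducible genes with longer runs of the element, and Hspbp1 had the lowest ratio. Hsph1 has 2 annotated starts, and the stretch shown is the one with more matches, 3 against 1. The stretches lie at chr17:34972127-34972406 (minus strand, Hspa1a), chr17:34959209-34959488 (minus, Hspa1b), chr1:55087898-55088177 (plus, Hspe1), chr5:149636286-149636565 (minus, Hsph1), chr9:18292017-18292296 (plus, Chordc1) and chr7:4684952-4685231 (minus, Hspbp1).
Hspa1a: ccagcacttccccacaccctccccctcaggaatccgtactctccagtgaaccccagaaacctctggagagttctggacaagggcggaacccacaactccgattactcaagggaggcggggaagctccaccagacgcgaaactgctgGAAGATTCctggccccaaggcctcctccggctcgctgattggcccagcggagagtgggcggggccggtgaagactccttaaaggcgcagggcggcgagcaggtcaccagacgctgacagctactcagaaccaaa
Hspa1b: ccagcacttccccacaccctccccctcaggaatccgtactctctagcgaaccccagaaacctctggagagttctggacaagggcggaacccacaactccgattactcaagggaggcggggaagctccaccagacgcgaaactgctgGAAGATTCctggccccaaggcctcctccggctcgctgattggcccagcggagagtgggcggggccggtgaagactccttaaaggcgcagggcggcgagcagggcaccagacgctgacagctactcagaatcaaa
Hspe1: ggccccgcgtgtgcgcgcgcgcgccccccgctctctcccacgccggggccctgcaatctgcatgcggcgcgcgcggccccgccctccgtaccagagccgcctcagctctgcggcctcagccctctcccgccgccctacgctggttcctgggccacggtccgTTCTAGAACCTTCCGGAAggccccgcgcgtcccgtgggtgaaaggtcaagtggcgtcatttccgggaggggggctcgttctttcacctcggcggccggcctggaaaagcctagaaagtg
Hsph1: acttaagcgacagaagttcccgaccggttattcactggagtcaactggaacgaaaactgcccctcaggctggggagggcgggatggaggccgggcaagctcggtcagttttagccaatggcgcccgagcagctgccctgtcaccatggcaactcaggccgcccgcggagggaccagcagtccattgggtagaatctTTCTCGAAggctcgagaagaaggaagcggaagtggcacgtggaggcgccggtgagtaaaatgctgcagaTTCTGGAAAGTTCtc
Chordc1: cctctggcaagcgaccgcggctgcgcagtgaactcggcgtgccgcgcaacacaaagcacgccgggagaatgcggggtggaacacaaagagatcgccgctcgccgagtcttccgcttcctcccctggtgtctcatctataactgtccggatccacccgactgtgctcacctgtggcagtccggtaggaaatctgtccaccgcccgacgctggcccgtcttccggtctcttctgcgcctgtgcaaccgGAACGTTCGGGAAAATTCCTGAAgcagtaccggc
Hspbp1: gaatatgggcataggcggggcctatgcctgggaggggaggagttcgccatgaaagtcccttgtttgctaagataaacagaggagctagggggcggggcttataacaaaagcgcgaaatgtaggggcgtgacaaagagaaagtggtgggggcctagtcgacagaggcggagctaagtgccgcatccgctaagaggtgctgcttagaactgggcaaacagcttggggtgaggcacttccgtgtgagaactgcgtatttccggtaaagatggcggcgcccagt

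The Hspa1a and Hspa1b stretches differ at 4 of 280 bases (98.6% identical), and in each the element GAAGATTC begins 104 bases before the start. In Hspe1, 3 overlapping matches form an unbroken run that begins 89 bases before the start. An Hspd1 window shares 275 of these bases on the opposite strand, since the genes lie head to head on chromosome 1. In Chordc1 the run of 4 overlapping matches begins 4 bases before the start. Hspbp1 has no match in this stretch.

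A promoter window was found for 65 of the 76 members. Of these, 16 (24.6%) held a 2-unit element, against 13.6% of 4827 measured genes of the array and 16% of all 27025 genes with a window. The 3-unit element, GAANNTTCNNGAA or TTCNNGAANNTTC, contains the 2-unit one and was found in 5 members: Hspd1, Hspe1, Hsph1, Chordc1 and Dnajb6. That is 7.69% of the members, against 0.559% of measured genes. A gene was counted if any of its windows held a match. Hspd1 and Hsph1 each have another window without a 3-unit match. Members with a 2-unit match had a median log2 ratio of -0.05 and members without one -0.15. Among the 5 with a 3-unit match, Chordc1 was highest at 0.58 and Hspe1 lowest at -0.59. A match is a description of these letters and not of binding.

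In K5 knockout skin 2 of 69 measured members were at least 2-fold higher, Hspa1a and Hspa1b, and 1 was at least 2-fold lower, Hspbp1. Of all 5976 measured genes 1.54% passed 2-fold upwards and 0.703% downwards. Both directions together came to 3 members (4.35%), beside 2.24% of all measured genes. (That split, 92 higher and 42 lower, was 79 and 59 with quantile normalization and 82 and 56 with a lowess correction.) At 1.5-fold the members counted 2 higher and 5 lower, against backgrounds of 7.63% and 5.27%. Counted at any size, 45 of the 69 members were lower and 24 higher, while 46.1% of all measured genes were lower and 53.9% higher. Their median log2 ratio was -0.13, beside 0.04 for all measured genes. Of the 69, 56 lay within 0.35 of 0 on the log2 scale.

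**Figure D1:**
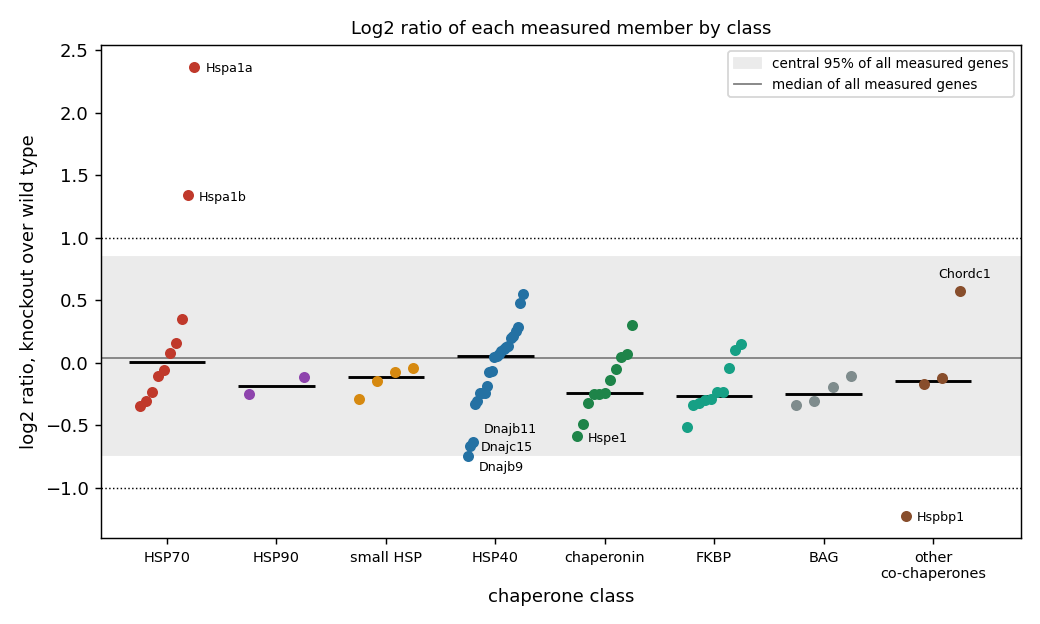
Log2 ratio of knockout over wild type for each measured member, by chaperone class; each point is 1 gene, black bars are class medians, the grey band holds the central 95% of all measured genes and dotted lines mark 2-fold. Hspa1a (2.37), Hspa1b (1.34) and Hspbp1 (-1.23) lie past the dotted lines and no other member does.

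How far probe sets for 1 gene differ is the measure of technical error these files allow. In log2 units its SD was 0.30 over the 838 genes for which 2 or more probe sets exceeded the floor on each array, and 0.23 over 15 such members. It holds no variation between animals or arrays. In 7 of the 15 members each of these probe sets had the same sign, and in 8 the signs were opposed. Most member differences named below are therefore of the size at which probe sets of the same gene differ. The inducible HSP70 genes and Hspbp1 are furthest beyond it. Smaller differences, such as those of Dnajc15 (-0.66) and Chordc1 (0.58), also exceed this SD. That of Dnajb9 (-0.75) does so too, but its other probe set was at 0.16, 0.91 away. Exceeding the SD is therefore no assurance for a single gene.

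Among the HSP70 genes the inducible pair stood high in the knockout. Hspa1a, the stress-inducible cytosolic HSP70, read 7676 in knockout and 1489 in wild type skin, 5.16-fold higher and second among the 5976 measured genes by ratio. Hspa1b, which encodes a nearly identical protein, read 6278 and 2479, 2.53-fold higher. Each gene has 1 probe set, and on each the knockout signal was the higher. The probe sets may detect both transcripts, so the ratio of each gene alone is uncertain. In the setting that changed them most, a pseudocount in place of the floor, the log2 ratios were 2.19 and 1.26.

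The constitutive HSP70 genes showed no such difference. Hspa8, the housekeeping cytosolic HSP70, read 8006 in knockout and 7199 in wild type skin, which is 0.15 in log2 units. Hspa5, the HSP70 of the endoplasmic reticulum (BiP), read 6018 and 6273, at -0.06. Hspa9, the mitochondrial HSP70, read 3439 and 4044, at -0.23. All 3 are brightly detected, so the floor has no part in these values.

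Hspa1l, a spermatid HSP70 gene and the next gene to Hspa1a on chromosome 17, did not share the high signal. It read 242 in the knockout, under the floor, and 314 in the wild type, a bound of at least 1.27-fold lower. Hspa14, a ribosome-associated HSP70, read 593 and 733, at -0.31. Hspa2, the testis-enriched HSP70, was under the floor on both arrays (222 and 185). Without Hspa1a and Hspa1b the 8 other measured genes of the class had a median of -0.08, with 3 higher and 5 lower, and with them 0.01.

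**Figure D2:**
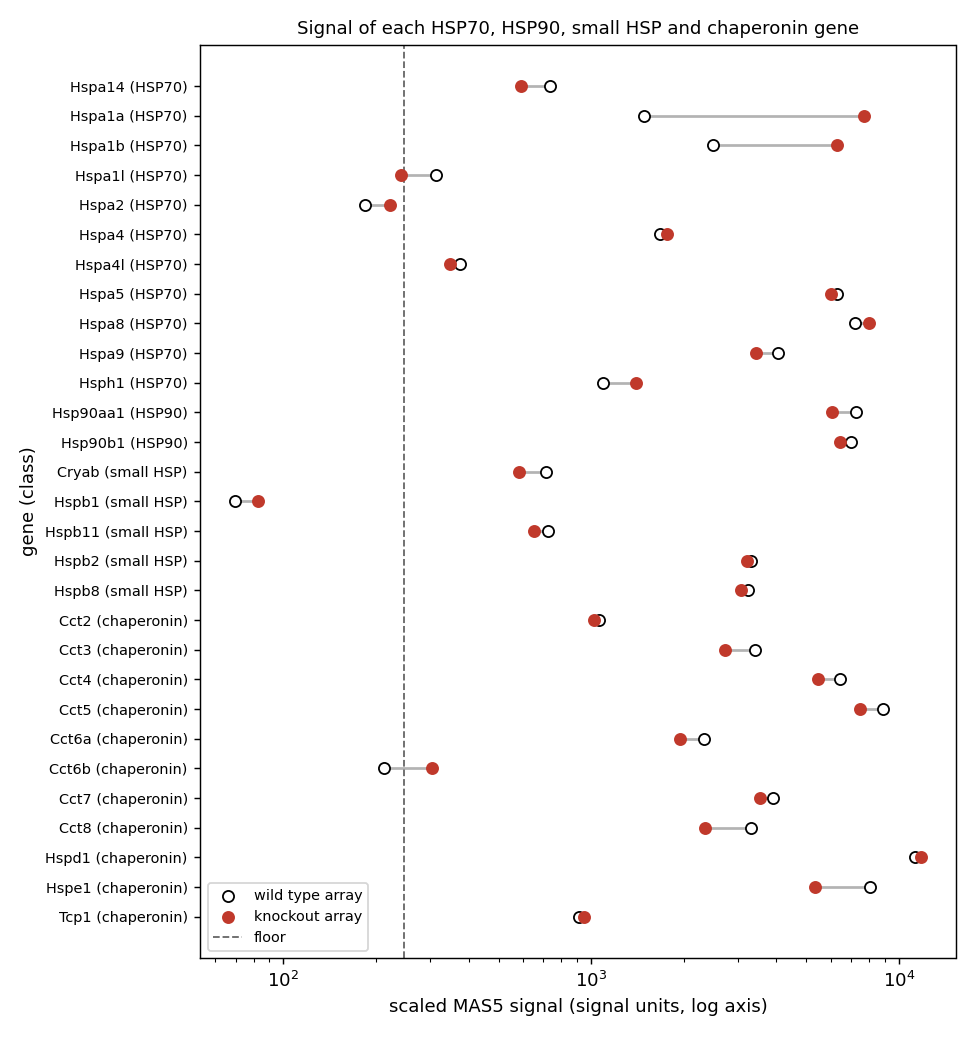
Scaled MAS5 signal (log axis) of each HSP70, HSP90, small HSP and chaperonin gene on the knockout array (filled) and the wild type array (open); the dashed line is the floor of 246.7 signal units. The widest gaps are those of Hspa1a (7676 against 1489) and Hspa1b (6278 against 2479); Hspe1 and Cct8 show the widest gaps in the other direction among bright genes.

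Nucleotide exchange factors make HSP70 let go of ADP and client. In a list of 7 written after the values were seen, 5 were lower and 2, Hsph1 and Hspa4, higher, where 46.1% of all measured genes were lower. Hsph1, an HSP110 protein that is itself heat-inducible, read 1398 in knockout and 1096 in wild type skin, at 0.35, the highest of the class after Hspa1a and Hspa1b. Its relative Hspa4 read 1758 and 1667, at 0.08. Its 4 probe sets that exceeded the floor on each array lay between 0.05 and 0.22, all on the same side. Hspa4l read 348 and 374, at -0.11.

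Hspbp1, an exchange factor that can also inhibit HSP70 refolding, was the lowest member. It read 413 in knockout and 968 in wild type skin, 2.34-fold lower. Its single probe set carries an _f_ suffix, by which the array's maker marks probes that can match related sequences. The log2 ratio was -0.88 with a pseudocount and a bound of -0.55 under a floor raised to the 60th percentile, which the knockout signal does not reach. The direction was the same in each setting that gave a value, while the 2-fold call was not.

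BAG proteins are exchange factors that tie HSP70 to degradation, autophagy or survival pathways. All 4 on the array were lower by small amounts, with a median of -0.25, where 46.1% of all measured genes were lower. Bag3, a heat-inducible partner of HSP70 and small HSPs in selective autophagy, read 1343 and 1660, at -0.31, but its second probe set read 1203 and 1173, at 0.04. Bag2, an inhibitor of the ubiquitin ligase Stub1, read 1787 and 2264, at -0.34, and -0.20 on another probe set. Bag1 read 2088 and 2388, at -0.19. The 4 probe sets of Bag6, a chaperone of membrane protein precursors, ran from -0.50 to 0.12.

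HSP40 was the largest class, with 24 of 27 genes measured and a median of 0.05. Of these, 13 were higher and 11 lower, close to the 53.9% of all measured genes that were higher. None was at least 2-fold different. Dnajb1, the heat-inducible HSP40 that works with Hspa1a, read 1810 in knockout and 1481 in wild type skin, 1.22-fold higher. Dnaja1 read 2498 and 2284 (0.13) and Dnaja2 read 960 and 829 (0.21). These 3 cytosolic partners of HSP70 were on the higher side, by less than the 0.30 seen between probe sets.

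The highest HSP40 ratio was that of Dnajc13, an endosomal protein, which read 615 and 421, at 0.55. Dnajb2, which delivers clients to the proteasome, read 1061 and 763, at 0.48, and Dnajc5, the synaptic vesicle protein CSP, 1001 and 840, at 0.25. Dnajc8, a splicing-related protein and the brightest of the class, read 5821 and 5635, at 0.05. Its other probe set was at -0.24.

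Of the 3 HSP40 genes at least 1.5-fold lower, Dnajb9 and Dnajb11 work in the endoplasmic reticulum and Dnajc15 in mitochondria. Dnajb9 (ERdj4), a target of the unfolded protein response that returns BiP to its sensor, read 663 in knockout and 1115 in wild type skin, at -0.75. Its other probe set read 400 and 359, at 0.16, so the sign rests on the choice of probe set. Dnajb11 (ERdj3), a BiP co-chaperone, read 464 and 722, at -0.64, and at a bound of -0.13 under the raised floor of the 60th percentile. Dnajc15, an inner membrane protein of the import motor, read 693 and 1098, at -0.66. Its single probe set carries an _s_ suffix, so it has no value with plain probe sets only.

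The rest of the class differed little. Dnajb6, which suppresses aggregation and binds keratin filaments in other epithelia, read 4158 and 4915 (-0.24), and 0.01 on another probe set. Dnajc9, a histone chaperone, read 3114 and 3679 (-0.24), Dnajc17 read 587 and 738 (-0.33) and Dnaja3, the mitochondrial HSP40, 1402 and 1599 (-0.19). Dnajc21 had a bound of -0.31 and Dnajb3 stood at -0.24, both close to the floor. Dnajb4, Dnajb13, Dnajc1, Dnajc2, Dnajc3, Dnajc4, Dnajc7 and Dnajc10 lay between -0.07 and 0.20. Dnajb5, Dnajb8 and Dnajc11 were under the floor on both arrays.

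The 2 HSP90 genes analysed were slightly lower. Hsp90aa1, the inducible cytosolic HSP90, read 6063 in knockout and 7235 in wild type skin, at -0.25. Hsp90b1, the HSP90 of the endoplasmic reticulum (GRP94), read 6458 and 6988, at -0.11. With quantile normalization, and likewise with a lowess correction, Hsp90aa1 was at -0.16 and Hsp90b1 at -0.02. The high Hspa1a and Hspa1b signals were thus not matched by the inducible HSP90 gene on the same array.

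The co-chaperones that link HSP70 to HSP90 were also near the wild type level, apart from Chordc1. Stip1 (HOP), the adaptor that hands clients from HSP70 to HSP90, read 1263 and 1377 (-0.13), and St13 (HIP), which stabilises ADP-bound HSP70, 1932 and 2174 (-0.17). Chordc1, a heat-inducible HSP90 partner, read 1517 in knockout and 1017 in wild type skin, at 0.58 (1.49-fold), just short of the 1.5-fold mark. A second probe set read 1357 and 901, at 0.59. It is the member of highest ratio with more than 1 probe set above the floor, and the probe sets differed by 0.01.

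FKBP genes encode peptidyl-prolyl isomerases, several of them HSP90 partners. Of 10 measured, 8 were lower, with a median of -0.26, beside 46.1% of all measured genes that were lower. Fkbp3, a nuclear isomerase, read 948 in knockout and 1356 in wild type skin, at -0.52, the lowest of the class. Fkbp4 (FKBP52), which promotes steroid receptor activity, read 3086 and 3774, at -0.29, and -0.33 on its other probe set. Fkbp1a (FKBP12), the brightest of the class and the target of tacrolimus and rapamycin, read 6561 and 8220, at -0.33. Fkbp5 (FKBP51), a glucocorticoid-induced inhibitor of the receptor, read 4831 and 4504, at 0.10. Fkbp4 and Fkbp5 thus lay on opposite sides of 0.

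Fkbp9, at 0.15 (5709 and 5143), was the highest FKBP gene. Fkbp11 (-0.34), Fkbp7 (-0.24) and Fkbp2 (-0.23), isomerases of the secretory pathway like Fkbp9, were lower. Fkbp1b, a ryanodine receptor partner, was at -0.30 and Fkbp8, a mitochondrial anchor of survival factors, at -0.04. No FKBP gene reached 1.5-fold.

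Small HSPs hold unfolding proteins in a soluble state. Hspb8, which acts with Bag3, read 3067 in knockout and 3233 in wild type skin, at -0.08. Hspb2, a muscle-enriched member, read 3205 and 3300, at -0.04, and 0.02 on its other probe set. Cryab, the neighbour of Hspb2 on chromosome 9, read 583 and 712, at -0.29, on a probe set with an _f_ suffix, while its plain probe set was under the floor on both arrays (30.8 and 29.6). Hspb11, named as a small HSP but known as a subunit of intraflagellar transport, read 650 and 722, at -0.15.

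All 4 measured small HSPs were therefore slightly lower (46.1% of all measured genes were lower), with a median of -0.11. Muscle markers leaned the other way on the same arrays: of 17 measured, 14 were higher and 3 lower, with a median of 0.20, and their part in the small HSP values was not tested. Hspb1 (HSP27), the small HSP best known from differentiating keratinocytes, read 82.7 and 69.5 and was under the floor on both arrays, so these data give no ratio for it.

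Chaperonin genes were lower as a group by small amounts: 8 of 11 were lower, against 46.1% of all measured genes. The chaperonin median was -0.24, and it was -0.18 with quantile normalization and -0.15 with a lowess correction. In the cytosolic ring (TRiC), which folds actin and tubulin, 7 of 9 genes were lower. Cct8 had the lowest ratio of the ring, reading 2352 in knockout and 3304 in wild type skin (-0.49). Cct3 read 2715 and 3403, at -0.33, and its 3 probe sets lay between -0.49 and -0.33. Cct5, the brightest, read 7450 and 8865, at -0.25, and -0.86 on a dim probe set (403 and 733).

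Cct4 read 5445 and 6444 (-0.24), Cct6a 1947 and 2319 (-0.25), Cct7 3531 and 3885 (-0.14) and Cct2 1024 and 1059 (-0.05). Tcp1, the alpha subunit, read 947 and 916, at 0.05. Cct6b, the testis form of the zeta subunit, was above the floor in the knockout alone (303 and 212), a bound of 0.30. Subunits of a ring whose members are needed in equal number thus ranged from -0.49 to 0.05, leaving out the Cct6b bound.

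Listed tubulin genes and most helper genes of the ring were on the lower side too, while actin genes were mixed. Of 8 listed actin and tubulin genes 6 were measured and 5 were lower, with a median of -0.41, beside 46.1% of all measured genes. Tubb5 was at -0.53 and Tuba1a at -0.50, while Actb was at -0.19 and Actg1 at 0.11. Among actin genes outside the list, Acta2 was at -0.67, Actg2 at -0.08, Acta1 at 0.06 and Actc1 at 0.20. Prefoldin and tubulin cofactor genes, which bring clients to the ring or take them over, counted 6 lower and 3 higher with a median of -0.20. None of these lists held a gene past 2-fold. Proliferation markers were lower on the same arrays, 8 of 9 with a median of -0.69 and a summed signal of 15516 against 24946, and their part in these values was not tested.

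The mitochondrial chaperonin was divided. Hspd1 (HSP60), the barrel, read 11809 in knockout and 11253 in wild type skin, at 0.07. Hspe1 (HSP10), its lid, read 5348 and 8046, at -0.59, just past 1.5-fold lower. The genes are neighbours whose promoter stretches overlap, as shown above. Hspe1 kept a value between -0.59 and -0.50 over the settings. Whether the Hspd1 and Hspe1 probe sets respond equally to their transcripts is not known from these files.

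The heat shock factors could not be followed. The 4 readings of Hsf2 and Hsf4 lay between 13.3 and 26.9, far under the floor, and Hsf1 was not analysed here. With no value for the factor, the known heat-inducible members are described by their own signals. Of 16 such genes, a list written after the values were seen, 15 were measured, 8 higher and 7 lower, with a median of 0.07. Among all measured genes 53.9% were higher and the median was 0.04, so the list as a whole lay close to them. Hspa1a, Hspa1b, Chordc1, Hsph1 and Dnajb1 were the 5 highest, and Hspe1, Bag3, Fkbp4, Cryab and Hsp90aa1 the 5 lowest.

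**Figure D3:**
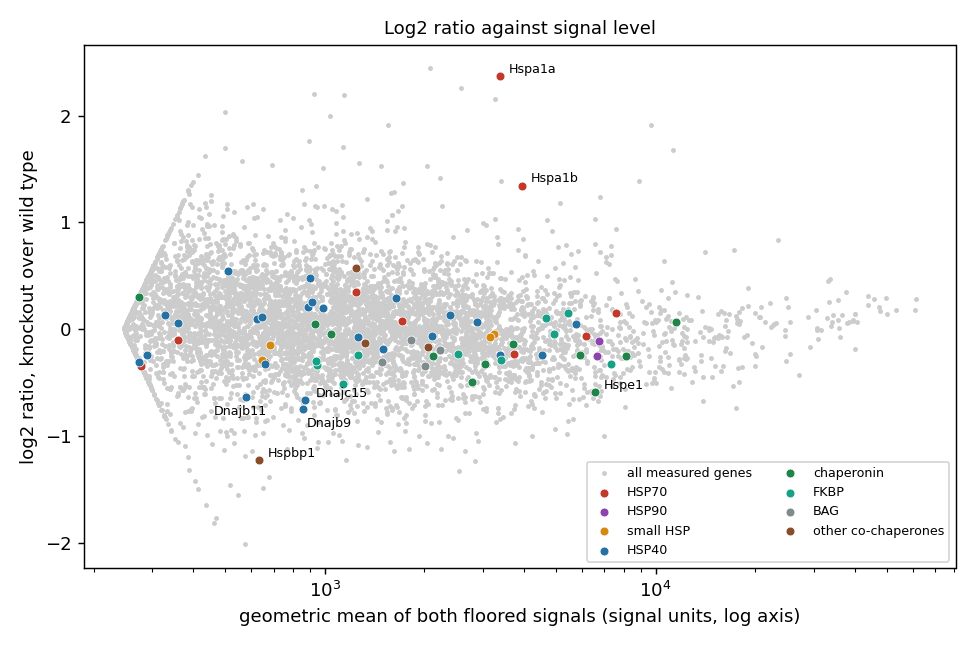
Log2 ratio of knockout over wild type against signal level (geometric mean of both floored signals, log axis), with all 5976 measured genes in grey and members coloured by class. Hspa1a and Hspa1b lie above most of the cloud, at levels where other genes such as Zfp36 (2.25) and Atf3 (2.15) also lie high. Hspbp1 and the Dnajb genes marked lie at lower levels. The central 95% of ratios ran from -0.74 to 0.85 over all measured genes. It ran from -0.72 to 0.78 over the 3124 genes above the floor on both arrays with a mean signal above 1000.

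Heat-inducible genes that are no chaperones were all on the higher side. Of the 3 on the array, the metallothionein gene Mt1 was at 0.47 (10184 and 7370), Hmox1, heme oxygenase, at 0.16 and Mt2 at 0.07. Immediate early genes, which respond within minutes to injury and to handling of tissue, were higher on the same array as Hspa1a and Hspa1b. Of 13 measured 12 were higher, 9 of them at least 2-fold, with a median of 1.39 and a summed signal of 85101 in the knockout against 30862 in the wild type. Over all measured genes 53.9% were higher and 1.54% at least 2-fold higher. Macrophage markers were also higher, 7 of 7 with a median of 0.58 (10299 against 6916). The part of either in the HSP70 values was not tested.

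By location, members of the secretory pathway and of mitochondria were slightly lower, in lists written after the values were seen. So were the members at large, of which 65.2% were lower, with a median of -0.13. By its median the endoplasmic reticulum list was thus no lower than all members. Of 11 endoplasmic reticulum members 8 were lower and 3 higher, where 46.1% of all measured genes were lower. The median of the 11 was -0.11, with values from -0.75 (Dnajb9) to 0.20 (Dnajc3, the PERK inhibitor p58IPK). Both ends rest on the choice of probe set: another probe set of Dnajc3 over the floor was at -0.15, and that of Dnajb9 at 0.16. BiP and GRP94, major chaperones of that compartment, were within 0.12 of 0. Of 5 measured mitochondrial members 4 were lower, with a median of -0.23. Hspd1 was the exception.

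Partners outside the symbol rule were mixed. Of 14 measured partners of HSP90 and HSP70, 6 were higher and 8 lower, and the median was -0.06. Cacybp, an adaptor of a ubiquitin ligase, was the lowest at -0.70, and Hsbp1, which binds heat shock factor trimers, was at 0.36. Cdc37, the kinase-specific HSP90 partner, was at -0.27 and Stub1 (CHIP), the ubiquitin ligase of HSP70 clients, at -0.35. Mitochondrial proteostasis genes had a median of 0.09, with 4 of 6 higher. Grpel1 and Grpel2, exchange factors of the mitochondrial HSP70, stood at -0.65 and 0.50.

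The agreement of probe sets of the same gene was closest for Chordc1, Fkbp4 and Hspb2, and poorest for Dnajb9, Bag6 and Cct5. The Fkbp4 pair, and likewise the Hspb2 pair, was designed on the same source sequence, so these are not independent readings. The Chordc1 pair has different source sequences. The Hspb2 values, though close, were opposed in sign (-0.04 and 0.02).

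**Figure D4:**
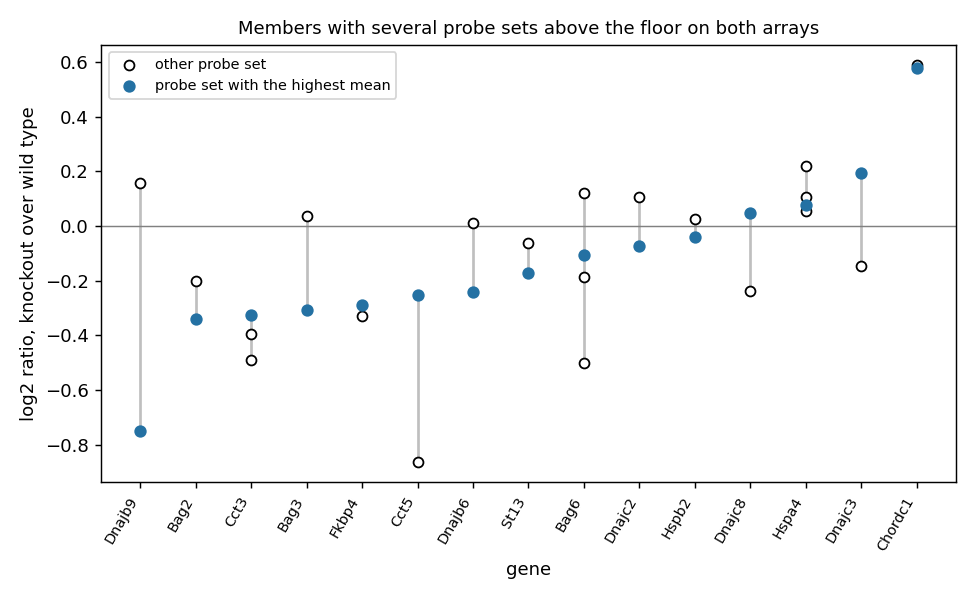
Log2 ratio of knockout over wild type for every probe set that exceeded the floor on each array, in the 15 members with more than 1; filled points are the probe sets that stand for the gene. The 2 probe sets of Dnajb9 differ by 0.91 and those of Chordc1 by 0.01.

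The differences of at least 1.5-fold, and that of Chordc1, were followed through each processing setting. Hspa1a and Hspa1b stayed past 2-fold in all of them.

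**Figure D5:**
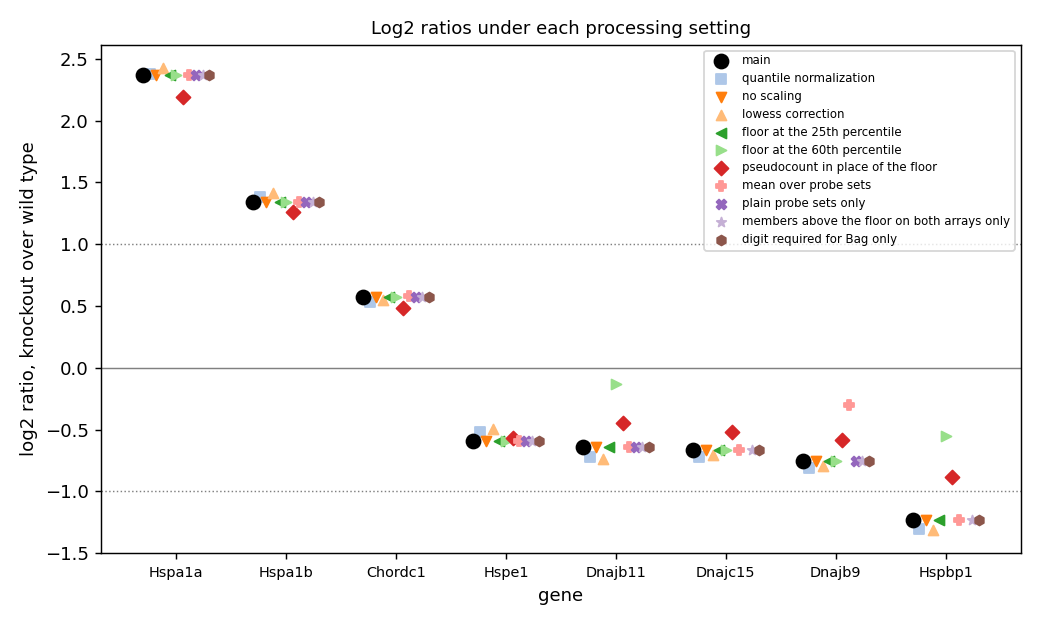
Log2 ratio of knockout over wild type of the 7 members at least 1.5-fold different and of Chordc1, under the main setting (large black circles) and 10 alternatives (other markers); dotted lines mark 2-fold. Hspbp1 leaves the 2-fold range with a pseudocount and under the raised floor, and Dnajb9 moves to -0.30 as the mean over its probe sets.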

How the data were processed

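Total RNA of 6 newborn mice per group was pooled and hybridised to 1 array per group, per the labels' protocols. The authors deposited 1 intensity per probe set on a linear scale. MAS5 is named in the submitters' processing notes. Its version and scaling target are not given in the sources used here. Of 12488 probe sets, 66 are controls, 10833 have 1 gene symbol, 396 several and 1193 none. All 76 member symbols matched a RefSeq gene table of GRCm38.p6 by Entrez identifier.

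From the deposited intensities, each array was scaled to a common 2% trimmed mean, values under the 40th percentile were raised to it, and log2 ratios were taken (Python 3.11.15, pandas 2.3.3, statsmodels 0.14.6). Scaling hides any difference in the RNA content of cells. The number of arrays limits the precision, and no test was possible. The calculation was tested on simulated data.

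Full values were given to members at least 1.5-fold different, to every measured HSP70, HSP90, small HSP, chaperonin and HSF gene, and to the highest, lowest and brightest gene of the other classes. The symbol rule for the members and the lists were written with earlier results of these data known, although the rule reads no signal. Alternatives covered scaling, floor, probe set choice and the reading of the symbol rule.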

Additional observations from a re-analysis of the deposited data

How the results depend on the processing

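Of 671 single member values under the 10 alternatives, 666 moved by less than the SD of 0.30 among probe sets for 1 gene, and 5 moved by more. Several alternatives could hardly move a ratio, so the count of 666 overstates how far the values were challenged. Keeping only members above the floor on both arrays, or reading the symbol rule differently, left each remaining ratio unchanged. Omitting the scaling changed little, since the trimmed means were alike (993.9 knockout, 994.2 wild type). Probe set choice cannot move a gene with 1 plain probe set. No member at least 2-fold different changed sign, while 9 members close to 0, such as Bag6, Hspa5 and Hspb2, did in at least 1 alternative. The 5 values that moved were of Hspbp1 (-0.55 under a floor raised to the 60th percentile, -0.88 with a pseudocount), Dnajb11 (-0.13 under that floor), Dnajb9 (-0.30) and Cct5 (-0.56), both as the mean over probe sets. The 2 members at least 2-fold higher were counted in every alternative. The count at least 2-fold lower, 1, was 0 under the raised floor, with a pseudocount and with plain probe sets only, where Hspbp1 has no probe set left. The HSP70 median of 0.01 was 0.11 under the raised floor, where fewer genes are measured. The other class medians moved by less than 0.1, and that of HSP40 ranged from -0.04 to 0.07. The chaperonin median ranged from -0.25 to -0.15 and that of HSP90 from -0.18 to -0.09. The median of all members ranged from -0.15 to -0.09. The HSF class had no measured gene and no median. No paired analysis was possible because each group has 1 array, and no replicate could be left out. Dim genes are limited by signal over background, and the 3 members above the floor on 1 array have bounds only.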
